A study of Mus musculus with 156 samples.

Results

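The genes of sterol and fatty acid synthesis were followed in mouse embryonic stem cells (ESCs) after induction of the long noncoding RNA Firre. They were 32 of the 40914 genes in the deposited tables, taken by gene symbol from a list of pathway enzymes and regulators and not by their values. The sterol arm held 23 genes, from Hmgcs1 at the top of the mevalonate pathway to Dhcr7 at its end, with the regulators Srebf2 and Insig1 and the cholesterol carrier Stard4. The fatty acid arm held 9 genes, namely Acly, Acaca, Fasn, Scd1, Scd2, Fads1, Fads2, Elovl6 and the regulator Srebf1. All 32 passed the filter on low counts in both time courses.

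Poly(A) RNA was sequenced from 4 ESC lines in 156 libraries. The KO transgene line lacked Firre and carried a doxycycline-inducible Firre transgene, and the KO control lacked Firre and had no transgene. The WT transgene line carried the same kind of transgene beside its own Firre gene, and the WT control had no transgene. Each genotype was 1 line, and whether a line was a single clone was not stated in the labels. The cells grew on gelatin in serum medium with LIF and inhibitors of MEK and GSK3. Doxycycline at 1 ng per microlitre was given to all 4 lines, the controls included, on the day after seeding and after a change of medium. In the control lines the effects of doxycycline, of the fresh medium and of culture time therefore cannot be told apart. A long course sampled 0, 12, 24, 48 and 96 h with 3 replicates per line, and a short course sampled 12 times from 0 to 330 min with 2 replicates per line. What a replicate was is not given, so p-values measure only the spread between these samples, which may be technical.

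Cholesterol is built from acetyl-CoA through the mevalonate pathway, squalene and lanosterol. Fatty acids are built from the same acetyl-CoA, which Acly releases from citrate, by Acaca and Fasn. They are then elongated by Elovl6 and desaturated by Scd1 and Scd2. The arm also holds the desaturases Fads1 and Fads2. The transcription factors SREBP2 (gene Srebf2) and SREBP1 (Srebf1) drive both arms when membrane sterol is low. When sterol is plentiful, INSIG proteins hold the SREBPs in the endoplasmic reticulum, and Insig1 is itself an SREBP target, as is Stard4.

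SREBPs bind sterol response elements and act together with the factor NF-Y, which binds CCAAT boxes, so 4 promoters are shown with these letters marked. RefSeq (GRCm38.p6) gave a promoter for 24 of the 32 genes, of which the 250 bases before the transcription start were searched on both strands. In these windows CCAAT was found in 16 of 18 sterol arm genes and in 2 of 6 fatty acid arm genes, against 33.8% of 32851 promoter windows of the same length. Each member gave 1 window, at the start nearest the annotated one, whereas the 32851 windows hold every listed start of every gene. The letters TCACNCCAC, the core of a sterol response element, were found in 1 member, Hmgcs1, against 1.05% of all windows. A match describes these letters and was not measured as a binding site here, and a window without one says nothing of SREBP or NF-Y elsewhere. The promoter of Hmgcs1 lies at chr13:119690101-119690350 on the plus strand, that of Insig1 at chr5:28071162-28071362 on the plus strand, that of Acly at chr11:100528001-100528250 on the minus strand and that of Fasn at chr11:120824548-120824797 on the minus strand. Capitals mark CCAAT, its reverse complement ATTGG and, in Hmgcs1, the response element core, and each sequence reads 5′ to 3′ on the strand of its gene.
Hmgcs1: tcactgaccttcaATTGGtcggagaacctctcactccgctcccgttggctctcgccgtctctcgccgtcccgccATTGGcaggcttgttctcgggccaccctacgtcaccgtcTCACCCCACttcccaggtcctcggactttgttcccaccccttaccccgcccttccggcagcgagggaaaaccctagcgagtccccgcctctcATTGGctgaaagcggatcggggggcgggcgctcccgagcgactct
Insig1: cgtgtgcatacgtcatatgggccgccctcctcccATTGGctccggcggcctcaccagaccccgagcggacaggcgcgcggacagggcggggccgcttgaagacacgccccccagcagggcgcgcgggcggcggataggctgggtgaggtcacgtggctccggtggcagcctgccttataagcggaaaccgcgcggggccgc
Fasn: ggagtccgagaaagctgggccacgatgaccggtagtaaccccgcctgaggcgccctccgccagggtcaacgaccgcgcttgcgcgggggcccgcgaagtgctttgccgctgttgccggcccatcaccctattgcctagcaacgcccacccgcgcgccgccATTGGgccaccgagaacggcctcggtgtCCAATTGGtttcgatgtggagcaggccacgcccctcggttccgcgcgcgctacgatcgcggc
Acly: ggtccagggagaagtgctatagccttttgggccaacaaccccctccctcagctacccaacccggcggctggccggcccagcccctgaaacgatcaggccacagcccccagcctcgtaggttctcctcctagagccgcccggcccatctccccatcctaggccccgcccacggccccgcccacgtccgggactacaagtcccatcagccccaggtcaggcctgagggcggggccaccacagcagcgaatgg
Hmgcs1 and Fasn each held 3 CCAAT matches, of which a pair overlaps in Fasn as CCAATTGG, Insig1 held 1 and Acly none. The last 49 bases of the Insig1 window are not shown because they fall inside the annotated gene.

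Total counts were 18961799 to 47948630 per library in the long course and 19013652 to 37195019 in the short course. Firre was at 0.235 to 0.515 TPM in the KO control at 0 min, against 23.6 to 24.7 TPM in the WT control. With time it was called higher in the KO control, where it stood at 0.641 to 0.923 TPM at 12 h (1.82, edgeR adjusted p = 2.25e-07), and this change exceeded that of the WT control (1.69, edgeR adjusted p = 1.16e-05). At 12 h Firre stood at 47.3 to 50.8 TPM in the KO transgene line and 109 to 121 TPM in the WT transgene line. The ESC markers Pou5f1, Sox2, Nanog, Zfp42, Klf4, Esrrb, Dppa5a and Tdgf1 summed to between 7063 and 10620 TPM in every library. The markers of other cell types had summed levels of 0.987 to 4.98 TPM for fibroblasts, of which 5 of 7 genes averaged under 0.1 TPM, 2.30 to 7.47 TPM for primitive endoderm and 2.78 to 9.44 TPM for trophoblast. In RNA from whole cultures, fewer cells of a type and less RNA per cell cannot be told apart. Levels are given in TPM, which is scaled by transcript length, and fold changes are log2 values ± SE from counts scaled to library composition. On the count scale the median gene moved by no more than 0.03 at any time of the long course, whereas on the TPM scale it moved by as much as -0.12, in the WT control at 48 h. Where the TPM scale changes a call that is described, this is stated.

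The levels of the members spanned 191 to 1.12 TPM by their medians, in an order that differed little between the lines, although Hmgcs1 had a higher median than Acly in both KO lines and a lower one in both WT lines. Acly had the highest median over the 156 libraries, 191 TPM, with a range of 137.5 to 274.7 TPM. Hmgcs1, which makes HMG-CoA, followed with a median of 188.9 TPM, and its range of 142.3 to 275.4 TPM overlapped that of Acly. Next came Scd2 with a median of 143.5 TPM, Fdps, which makes farnesyl diphosphate, with 124.1 TPM, and Fasn with 108.6 TPM, and the ranges of these neighbours overlapped too. Insig1 stood at a median of 87.9 TPM, Idi1, the isopentenyl diphosphate isomerase, at 81.7 TPM, Elovl6 at 78.4 TPM and Srebf2 at 73.9 TPM. Srebf1 stood lower, at a median of 27.0 TPM. The least abundant were Stard4 with 8.77 TPM, the sterol reductase gene Hsd17b7 with 5.65 TPM and Acat3 with 1.12 TPM. Acat3 rested on 13 to 91 counts per library and is a near copy of Acat2, so that its values are uncertain. Among the others, the highest library exceeded the lowest by 1.44 to 2.88 times, the smallest ratio being that of Fdft1 (squalene synthase) and the largest that of Srebf1.

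The question of the long course was first what doxycycline, medium and time did to these genes in each line. Most of the sterol arm was lower after 0 min in all 4 lines, and by 24 h most of the drop was in place. In the sterol arm 16 of 23 genes fell in the KO transgene line, 17 in the KO control, 17 in the WT transgene line and 18 in the WT control, while 2, 3, 3 and 3 rose (edgeR F test over the 4 later times). Over all genes tested, 60.8% changed in the KO transgene line, 59.6% in the KO control, 61.9% in the WT transgene line and 54.8% in the WT control, with 30.7%, 29.8%, 30.6% and 26.1% of all genes lower. Of all 32 members 26, 29, 28 and 30 changed in these lines, and most of them were lower. The median log2 fold change of the arm, each gene at its time of largest size, was -0.23 in the KO transgene line, -0.21 in the KO control, -0.24 in the WT transgene line and -0.19 in the WT control, beside -0.06, -0.06, -0.07 and -0.07 over all genes. At 12 h alone only 2, 9, 1 and 8 of the 23 genes were lower in these lines, and at 24 h alone 15, 15, 16 and 16 were. Of all genes, 6.09%, 4.38%, 4.83% and 2.23% were lower at 12 h, and 21.5%, 22%, 19.6% and 15.8% at 24 h.

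Cell type markers moved over the same hours. Of 5 trophoblast markers, the KO transgene line had 4 called higher and 0 lower, the KO control 4 higher and 0 lower, the WT transgene line 3 higher and 1 lower, and the WT control 3 higher and 0 lower, with Krt7 higher by 2.80, 1.87, 2.60 and 1.43, Cdx2 by 2.03, 1.68, 1.10 and 1.28 and Gata3 by 1.79, 1.36, 0.71 and 0.69 on the log2 scale. Their summed level at 24 h was at most 9.19 TPM in the KO transgene line, against at most 3.92 TPM at 0 min, 6.64 against 3.71 TPM in the KO control, 8.15 against 7.14 TPM in the WT transgene line and 7.04 against 6.43 TPM in the WT control, without overlap between the times. Of 6 primitive endoderm markers 1 to 2 were higher and 1 to 2 lower in a line, with Dab2 higher by 2.11, 1.27, 1.13 and 1.12 in the same order. Sox7 was called lower in all 4 lines, by -0.76, -0.99, -1.70 and -0.57. The fibroblast markers Col1a1 and Thy1 were lower in all 4 lines, and the other 5 of 7 averaged under 0.1 TPM. Of the 8 ESC markers 4, 7, 4 and 6 were higher and 4, 1, 4 and 2 lower, with Klf4 higher by 0.47 to 0.87. Tdgf1 was lower in all 4 lines, by -0.367, -0.116, -0.375 and -0.254, and Pou5f1 and Sox2 were lower in both transgene lines. The part of these cell types in the changes of the members was not tested.

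**Figure D1:**
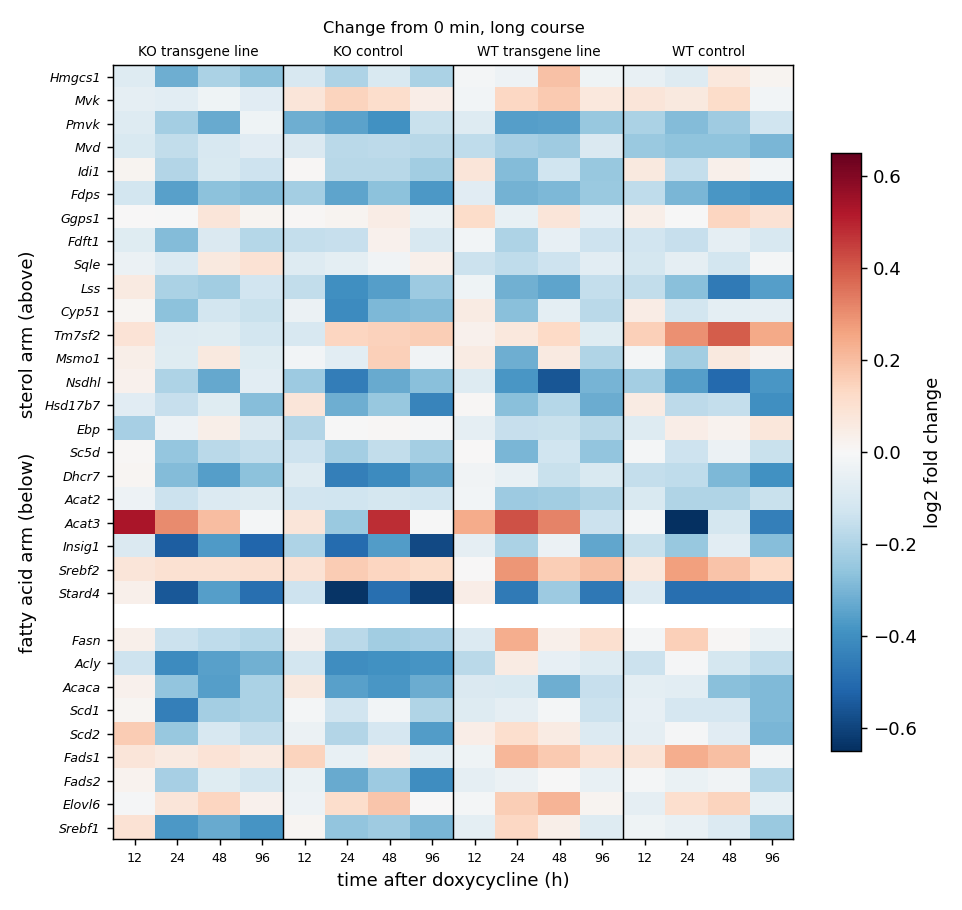
Log2 fold change from 0 min of each of the 32 genes (rows, sterol arm above fatty acid arm) at 12, 24, 48 and 96 h in the 4 lines (columns), edgeR fit, colours ending at ±0.65, which only Acat3 passes. Insig1 and Stard4 are among the darkest rows from 24 h in the KO lines, and Srebf2 is positive at its time of largest size in all 4 lines.

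Insig1, the sterol sensor and SREBP retention factor, showed the fall in every line. In the KO transgene line it fell to 62.7, 63.1 and 61.7 TPM at 24 h, against 94.5, 95.9 and 95.6 TPM at 0 min (-0.54 ± 0.04, edgeR adjusted p = 2.19e-25). In the KO control it fell to 69.4, 66.9 and 65.9 TPM at 96 h, against 104, 107 and 107 TPM at 0 min (-0.59 ± 0.04, edgeR adjusted p = 4.41e-25). All 3 later libraries lay below all 3 of 0 min in both KO lines. In the WT transgene line Insig1 stood at 69.0, 70.7 and 69.7 TPM at 96 h, against 89.5, 91.4 and 89.7 TPM at 0 min (-0.34 ± 0.04, edgeR adjusted p = 2.97e-13). In the WT control the values were 66.3, 70.3 and 68.0 TPM at 96 h, against 87.6, 90.6 and 90.4 TPM at 0 min (-0.28 ± 0.04, edgeR adjusted p = 5.79e-10). The WT lines did not overlap between 96 h and 0 min either, and all 4 lines met at 61.9 to 70.7 TPM at 96 h although the KO control had started highest.

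Stard4, which carries cholesterol between membranes, had the largest fold change of the arm in the KO control. There it fell to 7.92, 8.98 and 7.18 TPM at 24 h, against 12.9, 12.8 and 14.4 TPM at 0 min (-0.64 ± 0.06, edgeR adjusted p = 1.28e-19). The KO transgene line reached 7.57, 7.88 and 7.65 TPM at 24 h, against 11.5, 11.8 and 12.7 TPM at 0 min (-0.55 ± 0.06, edgeR adjusted p = 1.14e-17). In the WT transgene line Stard4 was at 7.23, 7.70 and 6.85 TPM at 96 h, against 9.58, 10.3 and 10.7 TPM at 0 min (-0.47 ± 0.06, edgeR adjusted p = 2.06e-14). The WT control gave 7.68, 8.03 and 6.67 TPM at 24 h, against 11.5, 10.2 and 11.2 TPM at 0 min (-0.49 ± 0.06, edgeR adjusted p = 2.1e-14). No later library overlapped the libraries of 0 min in any of these pairs.

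Srebf2, which encodes the SREBP2 precursor, moved the other way. Its values in the WT transgene line were 71.7, 62.6 and 76.6 TPM at 24 h, against 55.2, 58.5 and 58.7 TPM at 0 min (0.29 ± 0.04, edgeR adjusted p = 8.65e-12), and those in the WT control 78.1, 68.9 and 62.5 TPM, against 58.8, 61.8 and 57.0 TPM (0.27 ± 0.04, edgeR adjusted p = 1.73e-08). In the KO control Srebf2 was at 76.8, 77.8 and 76.7 TPM at 24 h, against 67.6, 65.9 and 63.9 TPM at 0 min (0.16 ± 0.04, edgeR adjusted p = 0.000607). The 24 h libraries were above those of 0 min in these 3 lines without overlap. In the KO transgene line the rise was smaller, 0.11 ± 0.04 at 96 h (edgeR adjusted p = 0.0433), its TPM-scale value at 96 h was -0.01, and the call was lost with DESeq2 (adjusted p = 0.0682).

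**Figure D2:**
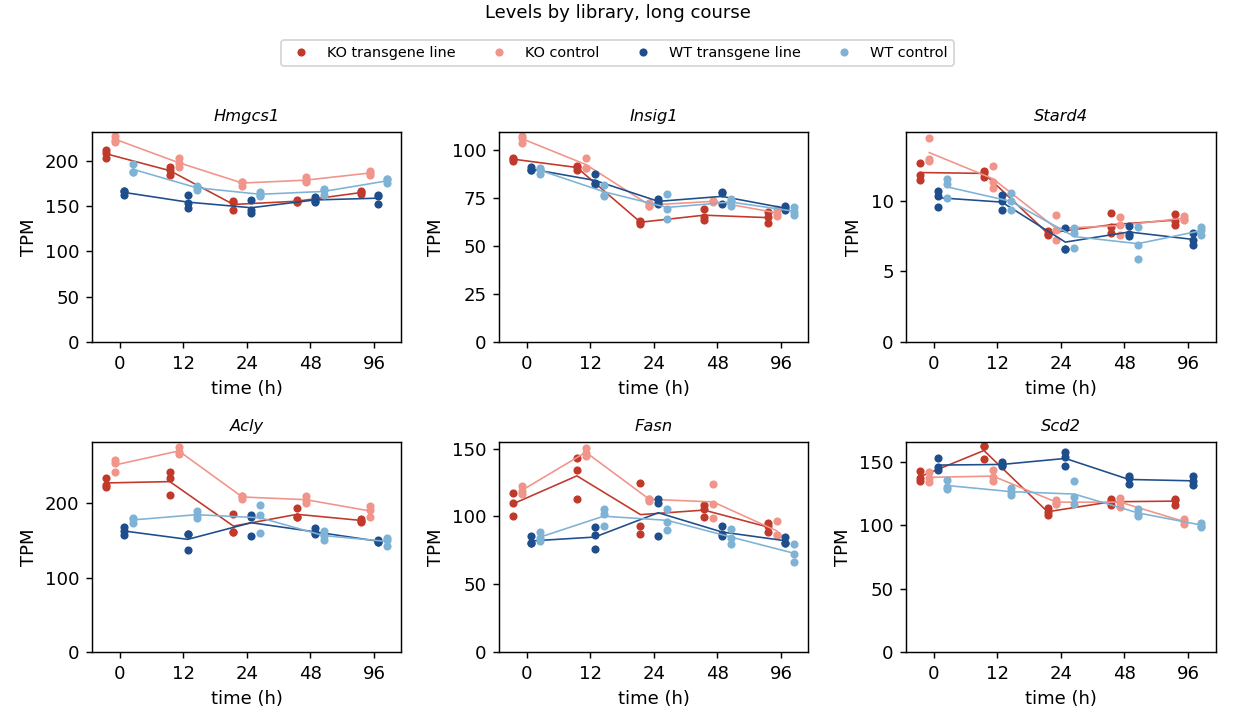
TPM of Hmgcs1, Insig1, Stard4, Acly, Fasn and Scd2 in every library of the long course (points) with the mean of the 3 replicates (lines), by time as evenly spaced categories. Insig1 of all 4 lines meets at 61.9 to 70.7 TPM at 96 h, and Acly starts at 222 to 258 TPM in the KO lines and at 158 to 180 TPM in the WT lines.

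Among the enzymes of the mevalonate steps, Hmgcs1 fell more in the KO lines than in the WT lines. It fell to 145, 155 and 155 TPM at 24 h in the KO transgene line, against 202, 212 and 208 TPM at 0 min (-0.32 ± 0.03, edgeR adjusted p = 1.58e-15). In the KO control it was at 188, 187 and 184 TPM at 96 h, against 222, 221 and 227 TPM at 0 min (-0.21 ± 0.03, edgeR adjusted p = 1.51e-08). Both KO lines had no overlap between these times. In the WT control the change was -0.09 ± 0.03 at 24 h (edgeR adjusted p = 0.000169), with 166, 161 and 162 TPM against 196, 188 and 188 TPM at 0 min. The count-based change in the WT transgene line was called higher, 0.19 ± 0.03 at 48 h (edgeR adjusted p = 7.33e-10), but the TPM were 155, 154 and 160 against 166, 166 and 162 at 0 min and the TPM-scale change was -0.07. The direction of Hmgcs1 in that line therefore depends on the scaling.

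Further down the pathway, 14 genes fell in all 4 lines on the scale of the counts and on that of TPM. These were Pmvk and Idi1 of the mevalonate steps, Fdps and Fdft1 on the way to squalene, Cyp51, Nsdhl, Hsd17b7 and Sc5d among the enzymes after lanosterol, the thiolase gene Acat2, Insig1 and Stard4, and from the fatty acid arm Acly, Acaca and Scd1. Lss (lanosterol synthase), Ebp (sterol isomerase) and Dhcr7 fell in all 4 lines on the count scale only. The share of all genes that fell in all 4 lines was not computed, on either scale. In single lines 26.1% to 30.7% of all genes were lower on counts. The C4 demethylation enzyme Nsdhl was at 13.8, 14.8 and 14.8 TPM at 48 h in the WT transgene line, against 23.4, 22.6 and 24.2 TPM at 0 min (-0.56 ± 0.06, edgeR adjusted p = 5.35e-14), and at 15.1, 12.7 and 14.0 TPM in the WT control, against 22.3, 21.7 and 23.5 TPM (-0.50 ± 0.06, edgeR adjusted p = 6.1e-11). Cyp51, the lanosterol demethylase, was at 35.4, 35.0 and 33.0 TPM at 24 h in the KO control, against 51.5, 49.4 and 51.2 TPM at 0 min (-0.41 ± 0.04, edgeR adjusted p = 1.27e-16). Fdps in the WT control was at 101, 97.4 and 94.7 TPM at 96 h, against 138, 140 and 145 TPM at 0 min (-0.40 ± 0.04, edgeR adjusted p = 5.66e-13). None of these sets of libraries overlapped. Idi1 of the WT transgene line fell by 0.28 ± 0.04 at 24 h (edgeR adjusted p = 2.18e-14), and its 3 libraries of 67.6, 71.8 and 67.9 TPM lay below the 93.5, 96.3 and 92.8 TPM of 0 min.

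Not every sterol gene followed. Sqle, the squalene epoxidase, was lower in 3 lines and ended near its start. In the KO transgene line it was called higher, 0.10 ± 0.04 at 96 h (edgeR adjusted p = 6.93e-05), with 52.6, 55.9 and 56.1 TPM at 96 h, against 53.1, 54.3 and 54.2 TPM at 0 min, which overlap. Sqle of the WT transgene line ranged from 61.0 to 62.5 TPM at 0 min, 50.9 to 54.9 TPM at 12 h, 50.1 to 52.7 TPM at 24 h, 47.1 to 49.6 TPM at 48 h and 57.0 to 59.9 TPM at 96 h (-0.16 ± 0.04 at 24 h, edgeR adjusted p = 0.000393). The WT control ran from 54.9 to 57.8 TPM at 0 min through 43.0 to 45.8 TPM at 48 h to 51.7 to 52.5 TPM at 96 h (-0.12 ± 0.04 at 48 h, edgeR adjusted p = 0.0107). Sqle in the KO control changed by -0.08 ± 0.04 at 12 h (edgeR adjusted p = 0.0389), with 52.3, 52.1 and 50.4 TPM against 56.4, 54.1 and 53.7 TPM at 0 min. The lowest mean TPM of Sqle came at 24 h in the KO transgene line and at 48 h in the other lines, and the mean at 96 h was higher in all 4 lines. The mevalonate kinase gene Mvk did not pass the test in any line, and Mvd, which makes isopentenyl diphosphate, passed in 3 lines, as lower.

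The fatty acid arm was counted in the same way. Of its 9 genes, 7 fell and 1 rose in the KO transgene line, 7 fell and 2 rose in the KO control, 3 fell and 5 rose in the WT transgene line, and 6 fell and 3 rose in the WT control. The median log2 fold change was -0.25, -0.30, 0.11 and -0.19 in this order. Acly was at 185, 160 and 161 TPM at 24 h in the KO transgene line, against 234, 224 and 222 TPM at 0 min (-0.41 ± 0.03, edgeR adjusted p = 1.29e-25), and at 208, 206 and 210 TPM in the KO control, against 258, 253 and 241 TPM (-0.40 ± 0.03, edgeR adjusted p = 1.97e-28). In the WT lines Acly at 24 h, with 183, 156 and 181 TPM in the WT transgene line and 198, 183 and 159 TPM in the WT control, overlapped the 158 to 167 TPM and 174 to 180 TPM of 0 min. The largest changes of Acly there were -0.18 ± 0.03 at 12 h in the WT transgene line (edgeR adjusted p = 2.86e-11) and -0.17 ± 0.03 at 96 h in the WT control (edgeR adjusted p = 3.51e-09).

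The stearoyl-CoA desaturases Scd1 and Scd2 are paralogues whose genes lie near each other on chromosome 19, Scd1 at 44394455 to 44407879 on the minus strand and Scd2 at 44293674 to 44306864 on the plus strand (mm10), and reads they share could have been split between them. Scd1 fell to 28.5, 27.9 and 27.7 TPM at 24 h in the KO transgene line, against 41.5, 41.2 and 39.0 TPM at 0 min (-0.44 ± 0.03, edgeR adjusted p = 1.92e-23). In the WT control it was lowest at 96 h, with 31.8, 31.7 and 32.4 TPM against 40.7, 43.6 and 42.6 TPM at 0 min (-0.29 ± 0.03, edgeR adjusted p = 5.16e-12). Neither pair of times overlapped. Scd2 reached 105, 103 and 101 TPM at 96 h in the KO control, against 137, 142 and 134 TPM at 0 min (-0.36 ± 0.03, edgeR adjusted p = 3.55e-20). The WT control came to 99.6, 98.9 and 102 TPM of Scd2 at 96 h, against 130, 135 and 128 TPM at 0 min (-0.30 ± 0.03, edgeR adjusted p = 8.7e-16). Scd2 at 96 h stood at 116, 121 and 120 TPM in the KO transgene line and at 135, 139 and 132 TPM in the WT transgene line, above the libraries of either control.

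At 24 h Fasn rose in the WT transgene line and Fads1 in both WT lines. Fasn was at 113, 85.4 and 110 TPM in the WT transgene line at 24 h, against 80.1, 80.4 and 85.4 TPM at 0 min (0.24 ± 0.05, edgeR adjusted p = 6.52e-06), and its second replicate at 24 h was level with the third of 0 min. The rise of Fads1, the delta-5 desaturase, was 0.22 ± 0.04 in the WT transgene line (edgeR adjusted p = 2.1e-09) and 0.24 ± 0.04 in the WT control (edgeR adjusted p = 7.33e-10). Fads2, the delta-6 desaturase, fell to 38.6, 36.5 and 36.9 TPM at 96 h in the KO control, against 50.6, 51.5 and 50.7 TPM at 0 min (-0.40 ± 0.03, edgeR adjusted p = 1.03e-21). Elovl6 was called higher in all 4 lines on the count scale, by 0.14 to 0.22 at 48 h, but on the TPM scale its change at that time was -0.01 to -0.08 and its levels stayed within 65.6 to 77.7 TPM throughout the long course. Srebf1 was lower at 96 h in the KO transgene line (-0.39 ± 0.06, edgeR adjusted p = 8.67e-12), the KO control (-0.30 ± 0.06, edgeR adjusted p = 8.63e-07) and the WT control (-0.24 ± 0.06, edgeR adjusted p = 0.00601). Srebf1 of the WT transgene line was higher at 24 h, 0.14 ± 0.06 (edgeR adjusted p = 0.00915).

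Whether the change with time differed between KO and WT cells was tested directly, in comparisons chosen after the data had been seen. Between the KO control and the WT control 12 members differed, all of them lower in the KO control (18.8% of all genes differed), 6 in each arm. Between the KO transgene line and the WT transgene line 12 members were lower and 4 higher (25.2% of all genes), and 8 of the 9 genes of the fatty acid arm were among the lower ones. The median over the fatty acid arm was -0.28 between the controls and -0.36 between the transgene lines, beside 0.05 and 0.04 over all genes. Acly differed most clearly, by -0.39 ± 0.04 at 24 h between the controls (edgeR adjusted p = 1.74e-17) and by -0.46 ± 0.04 between the transgene lines (edgeR adjusted p = 6.73e-21). Insig1 differed by -0.31 ± 0.05 at 96 h between the controls (edgeR adjusted p = 1.64e-07) and by -0.33 ± 0.05 at 48 h between the transgene lines (edgeR adjusted p = 1.39e-08). Hmgcs1 differed by -0.22 ± 0.04 at 96 h (edgeR adjusted p = 0.000249) and by -0.40 ± 0.04 at 48 h (edgeR adjusted p = 9.14e-12) in the same comparisons, and Scd2 by -0.18 ± 0.04 (edgeR adjusted p = 0.000157) and -0.36 ± 0.04 (edgeR adjusted p = 1.6e-16), both at 24 h. These 4 genes were lower in both comparisons on both scales. Dhcr7, Fasn, Acaca, Fads1 and Fads2 were lower in both comparisons on the count scale only. The share of all genes lower in both comparisons was not computed. On the TPM scale the calls were 0 higher and 5 lower between the controls, against 0 and 12 on counts, and 10 in all between the transgene lines, against 16. Scaling by library size alone turned the control comparison to 2 higher and 11 lower. These differences share the libraries of 0 min with the comparison of the controls at 0 min that follows.

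Before doxycycline, at 0 min of the long course, the KO control stood above the WT control in much of the fatty acid arm. Of the 9 genes 7 were higher and 1 was lower, and of the 23 sterol genes 7 were higher and 2 lower (35.1% of all genes differed, 16.5% higher). The median log2 difference was 0.30 in the fatty acid arm and 0.03 in the sterol arm, beside -0.01 over all genes. Acly was at 258, 253 and 241 TPM in the KO control, against 180, 178 and 174 TPM in the WT control (0.53 ± 0.03, edgeR adjusted p = 1.65e-29). Fasn was at 123, 119 and 117 TPM in the KO control, against 84.2, 88.5 and 81.6 TPM in the WT control (0.49 ± 0.05, edgeR adjusted p = 5.11e-11). Fads2 was at 50.6, 51.5 and 50.7 TPM in the KO control, against 37.9, 39.8 and 38.5 TPM in the WT control (0.44 ± 0.03, edgeR adjusted p = 1.36e-20). The groups did not overlap for any of these enzymes. Srebf1 was at 29.9, 27.0 and 26.9 TPM in the KO control, against 22.4, 23.4 and 22.1 TPM in the WT control (0.40 ± 0.06, edgeR adjusted p = 8.6e-08), also without overlap, while on the TPM scale this call did not pass.

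In the sterol arm Hmgcs1 was higher in the KO control than in the WT control at 0 min (0.24 ± 0.03, edgeR adjusted p = 6.82e-10), as were Insig1 (0.26 ± 0.04, edgeR adjusted p = 3.91e-09), Cyp51 (0.21 ± 0.04, edgeR adjusted p = 3.83e-06), Dhcr7 (0.20 ± 0.04, edgeR adjusted p = 8.75e-05), Stard4 (0.25 ± 0.05, edgeR adjusted p = 9.67e-05) and Srebf2 (0.11 ± 0.04, edgeR adjusted p = 0.00852). Their libraries in the KO control, with 222, 221 and 227 TPM of Hmgcs1, 104, 107 and 107 TPM of Insig1 and 12.9, 12.8 and 14.4 TPM of Stard4, lay above the 196, 188 and 188 TPM, 87.6, 90.6 and 90.4 TPM and 11.5, 10.2 and 11.2 TPM of the WT control. Msmo1, the C4 methyl oxidase, was lower in the KO control (-0.16 ± 0.04, edgeR adjusted p = 0.00233), and so was Scd1 (-0.11 ± 0.03, edgeR adjusted p = 0.00159), with 39.0, 38.9 and 37.3 TPM against 40.7, 43.6 and 42.6 TPM in the WT control. On the TPM scale 9 members were higher and 2 lower at 0 min, against 14 and 3 on counts. In the same comparison 4 of 8 ESC markers and 3 of 5 trophoblast markers were lower in the KO control and none was higher, and their part in the result was not tested. Over the mean of the 5 times of the long course 16 members were higher and 7 lower in the KO control (52.2% of all genes differed), and on the TPM scale the split was 17 higher and 2 lower.

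**Figure D3:**
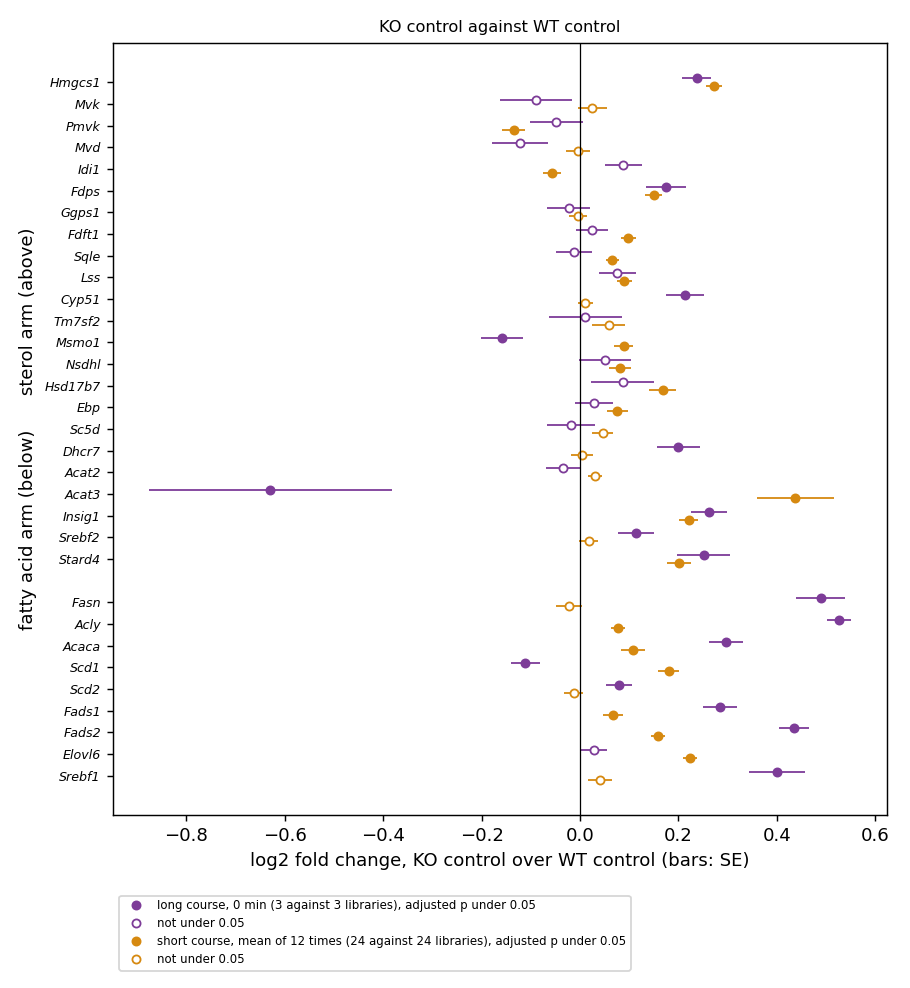
Log2 difference of the KO control from the WT control for each of the 32 genes at 0 min of the long course (3 libraries each) and as the mean over the 12 times of the short course (24 libraries each), with SE bars and filled points where the edgeR adjusted p is under 0.05. Acly and Fasn lie at 0.53 and 0.49 in the long course and at 0.08 and -0.02 in the short one, and Hmgcs1 and Insig1 are positive in both.

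The short course compared the same lines in other libraries. At its 0 min 3 members were higher in the KO control and none was lower (7.51% of all genes), namely Hmgcs1 (0.32 ± 0.05, edgeR adjusted p = 2.8e-05), Elovl6 (0.25 ± 0.05, edgeR adjusted p = 0.000846) and Stard4 (0.33 ± 0.09, edgeR adjusted p = 0.0101). This comparison had 2 libraries per line, the count was 0 without replicate 1, and on the TPM scale only Hmgcs1 passed. As the mean over the 12 times, 18 members were higher and 2 lower (46.6% of all genes, 24.2% higher), and the split was 16 higher and 5 lower on the TPM scale. The 24 libraries per line in this mean are 12 times of 2 replicates of 1 line, and the test took them as independent. Its SE and p-values therefore do not measure how the difference would repeat between other KO and WT lines. Hmgcs1 had a lowest, median and highest library of 211.5, 241.9 and 275.4 TPM in the KO control, against 179.6, 196.7 and 213.4 TPM in the WT control (0.27 ± 0.02, edgeR adjusted p = 7.49e-29). For Elovl6 these values were 83.5, 89.8 and 98.5 TPM in the KO control, against 75.1, 79.6 and 87.5 TPM in the WT control (0.22 ± 0.01, edgeR adjusted p = 5.82e-28). Insig1 had 82.1, 103 and 115 TPM in the KO control, against 80.0, 87.7 and 102 TPM in the WT control (0.22 ± 0.02, edgeR adjusted p = 7.24e-19). The ranges of all 3 genes overlapped between the lines, with the medians of the KO control above. Stard4 (0.20 ± 0.02, edgeR adjusted p = 1.23e-11) and Fads2 (0.16 ± 0.01, edgeR adjusted p = 7.83e-18) were higher as well. The difference in Acly was 0.08 ± 0.01 (edgeR adjusted p = 2.2e-06), and Fasn did not pass at -0.02.

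In the short course Scd1 was above the WT control in the KO control (0.18 ± 0.02, edgeR adjusted p = 1.31e-12), the reverse of its difference at 0 min of the long course. Srebf1 (0.04, edgeR adjusted p = 0.16) and Srebf2 (0.02, edgeR adjusted p = 0.463) did not pass in the short course, and on the TPM scale both values were negative, -0.02 and -0.06. Pmvk was lower (-0.14 ± 0.02, edgeR adjusted p = 4.58e-07), as was Idi1 (-0.06 ± 0.02, edgeR adjusted p = 0.00547), although the TPM-scale value of Idi1 was 0.02. Hmgcs1, Fdps, Insig1, Stard4, Acly, Acaca, Fads1 and Fads2 exceeded their WT control levels at 0 min of the long course and over the short course. Of these 8 genes 4, namely Hmgcs1, Insig1, Stard4 and Fads2, were higher in both on both scales. The share of all genes higher in both courses was not computed. In the single comparisons 16.5% and 24.2% of all genes were higher. The courses were fitted apart, and the difference between them was not tested.

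Before doxycycline the transgene lines already differed from their controls, in Firre itself and in some members. At 0 min Firre was at 0.588 to 1.07 TPM in the KO transgene line, against 0.235 to 0.515 TPM in the KO control (1.35, edgeR adjusted p = 0.000681), and at 45.8 to 46.8 TPM in the WT transgene line, against 23.6 to 24.7 TPM in the WT control (0.31, edgeR adjusted p = 6.68e-08). For Firre in the WT background the count-based difference was smaller than that in TPM, so the size of this excess depends on the scale. The reason was not tested. The responses to Firre described further on are taken relative to these starting levels. The KO transgene line was lower in 4 members and higher in none (3.54% of all genes differed). Acly was at 234, 224 and 222 TPM in the KO transgene line, against 258, 253 and 241 TPM in the KO control (-0.17 ± 0.03, edgeR adjusted p = 1.98e-06), Insig1 at 94.5, 95.9 and 95.6 TPM, against 104, 107 and 107 TPM (-0.15 ± 0.04, edgeR adjusted p = 0.00431), and Hmgcs1 at 202, 212 and 208 TPM, against 222, 221 and 227 TPM (-0.12 ± 0.03, edgeR adjusted p = 0.0118). Fdps differed by -0.15 ± 0.04 (edgeR adjusted p = 0.0217). The libraries of the 2 lines did not overlap for Acly, Insig1 and Hmgcs1, and on the TPM scale only Insig1 passed. The WT transgene line was higher in 9 members and lower in 3 (13.2% of all genes), among them Scd2 (0.17 ± 0.03, edgeR adjusted p = 9.71e-07), Scd1 (0.14 ± 0.03, edgeR adjusted p = 0.00023), Idi1 (0.19 ± 0.04, edgeR adjusted p = 0.000178) and Sqle (0.16 ± 0.04, edgeR adjusted p = 0.00141) as higher and Hmgcs1 (-0.18 ± 0.03, edgeR adjusted p = 4.93e-06) as lower. Hmgcs1 was at 166, 166 and 162 TPM in the WT transgene line, against 196, 188 and 188 TPM in the WT control. On the TPM scale the split in the WT background was 3 higher and 2 lower. Leaving out one replicate of every group gave 2 to 3 calls in the KO and 6 to 8 in the WT background.

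The response to Firre was computed by subtracting a control's change from the change of the matching transgene line, and is called rescue in KO cells and overexpression in WT cells. In the rescue 6 members were higher and 4 lower (11.5% of all genes responded), and the median was 0.10 in the sterol arm and 0.07 in the fatty acid arm, beside -0.05 over all genes. The count was 5 without replicate 1 and 3 without replicate 2 of every group, and on the TPM scale it was 1 higher and 2 lower. Scd1 was the clearest, with a response of -0.32 ± 0.04 at 24 h (edgeR adjusted p = 1.27e-10). It was at 28.5, 27.9 and 27.7 TPM in the KO transgene line at 24 h, against 36.6, 34.1 and 32.4 TPM in the KO control, after 41.5, 41.2 and 39.0 TPM, against 39.0, 38.9 and 37.3 TPM at 0 min. At 96 h the lines overlapped, with 33.6, 34.2 and 33.3 TPM of Scd1 in the KO transgene line and 32.2, 34.3 and 31.8 TPM in the KO control.

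Scd2 responded in the other direction, 0.21 ± 0.04 at 96 h (edgeR adjusted p = 1.74e-09), and also at 12 h, 0.20. It was at 162, 152 and 162 TPM at 12 h in the KO transgene line, against 138, 143 and 135 TPM in the KO control, and at 116, 121 and 120 TPM at 96 h, against 105, 103 and 101 TPM. The lines did not overlap at either time, whereas at 0 min they stood at 138, 142 and 135 TPM and 137, 142 and 134 TPM. Fads2 was higher as well (0.28 ± 0.04 at 96 h, edgeR adjusted p = 1.04e-05), with 42.8, 41.9 and 42.4 TPM in the KO transgene line against 38.6, 36.5 and 36.9 TPM in the KO control at 96 h, and Fdft1 was lower (-0.13 ± 0.05 at 24 h, edgeR adjusted p = 0.00295). Tm7sf2, a sterol reductase, was lower (-0.28 ± 0.11 at 96 h, edgeR adjusted p = 0.00289), and so was Hmgcs1 (-0.12 ± 0.04 at 24 h, edgeR adjusted p = 0.0475). Nsdhl (0.26 ± 0.08 at 12 h, edgeR adjusted p = 0.00892) and Lss (0.22 ± 0.06 at 12 h, edgeR adjusted p = 0.0249) were higher, but Lss had -0.09 on the TPM scale. Scd1, Scd2 and Fdft1 passed on both scales. Of the 8 ESC markers 5 were lower in the rescue, and 1 of 5 trophoblast markers was higher and 1 lower. Among the primitive endoderm markers Dab2 was higher (0.92) and Gata4 lower (-0.88). The part of these markers in the result was not tested. The regulators Insig1, Srebf1 and Srebf2 and the carrier Stard4 did not pass in the rescue, with 0.10 for Insig1 (edgeR adjusted p = 0.207), 0.17 for Stard4 (edgeR adjusted p = 0.536), -0.12 for Srebf1 (edgeR adjusted p = 0.344) and -0.07 for Srebf2 (edgeR adjusted p = 0.86).

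**Figure D4:**
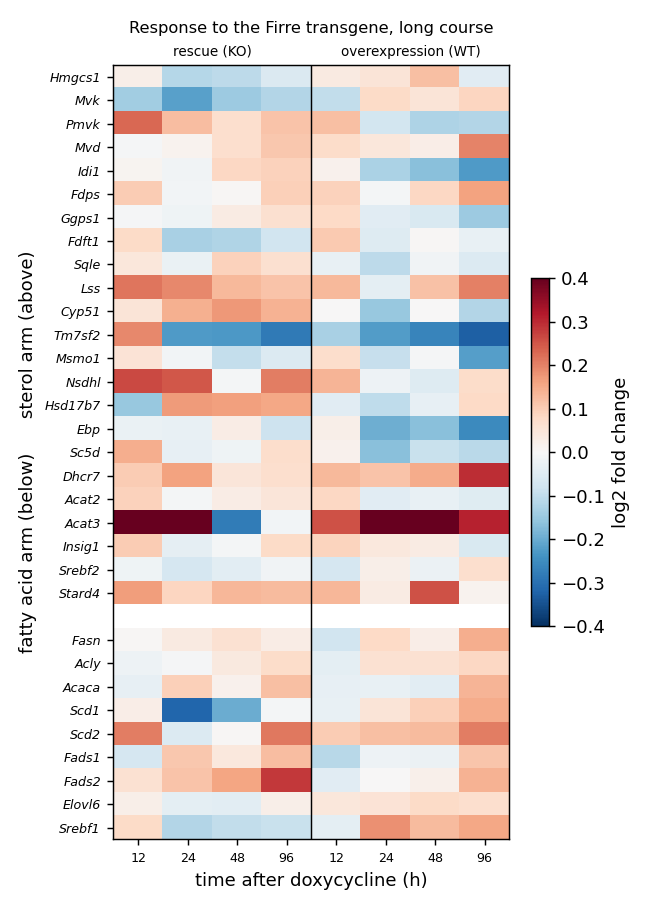
Response of each of the 32 genes to the Firre transgene in the long course (log2 change of the transgene line after subtracting that of its control) at 12, 24, 48 and 96 h, in KO cells (rescue, left) and WT cells (overexpression, right), colours ending at ±0.4, which Acat3 passes. Scd1 is negative at 24 and 48 h in the rescue and positive at 96 h in the overexpression, and Scd2 is positive at 96 h in both.

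In the overexpression 6 members were higher and 4 lower (9.79% of all genes), and the calls depended on single replicates, with 0 calls without replicate 2 and 5 without replicate 3 of every group. On the TPM scale the split was 4 higher and 1 lower, and with library size alone 9 higher and 3 lower. Scd2 was higher by 0.21 ± 0.04 at 96 h (edgeR adjusted p = 0.00149), with 135, 139 and 132 TPM in the WT transgene line, against 99.6, 98.9 and 102 TPM in the WT control. Scd1 was higher by 0.15 ± 0.04 (edgeR adjusted p = 0.00845), with 39.8, 41.4 and 39.9 TPM in the WT transgene line at 96 h, against 31.8, 31.7 and 32.4 TPM in the WT control. Idi1 was lower, with a response of -0.23 ± 0.05 at 96 h (edgeR adjusted p = 0.00143). The WT transgene line, at 75.1, 80.6 and 75.7 TPM at 96 h, had stood at 92.8 to 96.3 TPM at 0 min, whereas the WT control, at 70.9, 76.4 and 76.4 TPM, had stood at 80.1 to 83.8 TPM. For Scd1 and Scd2 the lines were apart at 96 h, and for Idi1 they overlapped. As given above, Scd1 and Scd2 were already called higher in the WT transgene line at 0 min, so their gap at 96 h is not the response alone. Scd1, Scd2 and Idi1 passed on both scales. Also called on counts were Ebp (-0.26 ± 0.06, edgeR adjusted p = 0.000156) and Msmo1 (-0.22 ± 0.06, edgeR adjusted p = 0.00558) as lower and Lss (0.20 ± 0.06, edgeR adjusted p = 0.00851) and Dhcr7 (0.29 ± 0.06, edgeR adjusted p = 0.0139) as higher, all at 96 h. In the overexpression the regulators and Stard4 did not pass either, with 0.09 for Insig1 (edgeR adjusted p = 0.261), 0.25 for Stard4 (edgeR adjusted p = 0.129), 0.18 for Srebf1 (edgeR adjusted p = 0.205) and -0.07 for Srebf2 (edgeR adjusted p = 0.343). Of the ESC markers, Sox2 (-0.193) and Tdgf1 (-0.318) were called lower and Klf4 (0.262) higher. The trophoblast marker Krt7 (1.175) was called higher, and the other cell type markers were not called. The part of these markers in the result was not tested.

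The responses differed between the backgrounds in 5 members, 2 higher and 3 lower in the rescue than in the overexpression (5.32% of all genes differed). Scd1 differed by -0.37 ± 0.06 at 24 h (edgeR adjusted p = 5.99e-08), Scd2 by -0.17 ± 0.05 at 24 h (edgeR adjusted p = 0.000979) and Hmgcs1 by -0.23 ± 0.06 at 48 h (edgeR adjusted p = 0.0154). Idi1 differed by 0.32 ± 0.08 at 96 h (edgeR adjusted p = 0.00353) and Cyp51 by 0.29 ± 0.08 at 24 h (edgeR adjusted p = 0.0257). Scd1, Scd2 and Idi1 passed on both scales. With library size alone the split was 1 higher and 4 lower, on the TPM scale 1 higher and 2 lower, and the count was 2 without replicate 2 and without replicate 3.

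In the short course, within 330 min of doxycycline, the members moved little. In the KO transgene line 5 were higher and 4 lower (20% of all genes changed), in the KO control 5 higher and 2 lower (13.3%), in the WT transgene line 2 higher and 7 lower (25.3%), and in the WT control 3 higher and 2 lower (21.8%), with mean fold changes over the 11 later times between -0.18 and 0.28. These splits moved with the scaling: on the TPM scale the WT transgene line had 6 higher and 2 lower and the KO control 1 higher and none lower. Insig1 was the member that passed in all 4 lines on both scales. It was higher in the KO transgene line (0.15 ± 0.04, edgeR adjusted p = 0.000108) and the KO control (0.17 ± 0.04, edgeR adjusted p = 0.000167) and lower in the WT transgene line (-0.13 ± 0.04, edgeR adjusted p = 2.32e-06) and the WT control (-0.08 ± 0.04, edgeR adjusted p = 0.00134).

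At the last time, 330 min, Insig1 was at 93.2 and 89.4 TPM in the KO transgene line, against 94.9 and 92.8 TPM at 0 min, and at 110 and 104 TPM in the KO control, against 101 and 94.5 TPM. It was at 81.1 and 74.7 TPM in the WT transgene line, against 90.4 and 84.6 TPM at 0 min, and at 80.0 and 84.2 TPM in the WT control, against 88.3 and 99.5 TPM. These pairs did not overlap in the KO control and the WT lines, with the KO control above and the WT lines below their 0 min, and overlapped in the KO transgene line. The change of Insig1 differed between the backgrounds, by 0.24 ± 0.06 between the KO control and the WT control (edgeR adjusted p = 3.28e-06) and by 0.29 ± 0.06 between the KO transgene line and the WT transgene line (edgeR adjusted p = 4.79e-06). It was the 1 member that differed between the controls (4.93% of all genes), and between the transgene lines 5 members were higher and 1 lower (14.6%), with 3 higher and 4 lower under library size alone, 1 higher and 4 lower on the TPM scale and 3 members without replicate 2. Both comparisons were chosen after the data had been seen. The KO minus WT difference in the change of Insig1 was positive within 330 min and negative over 96 h.

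**Figure D5:**
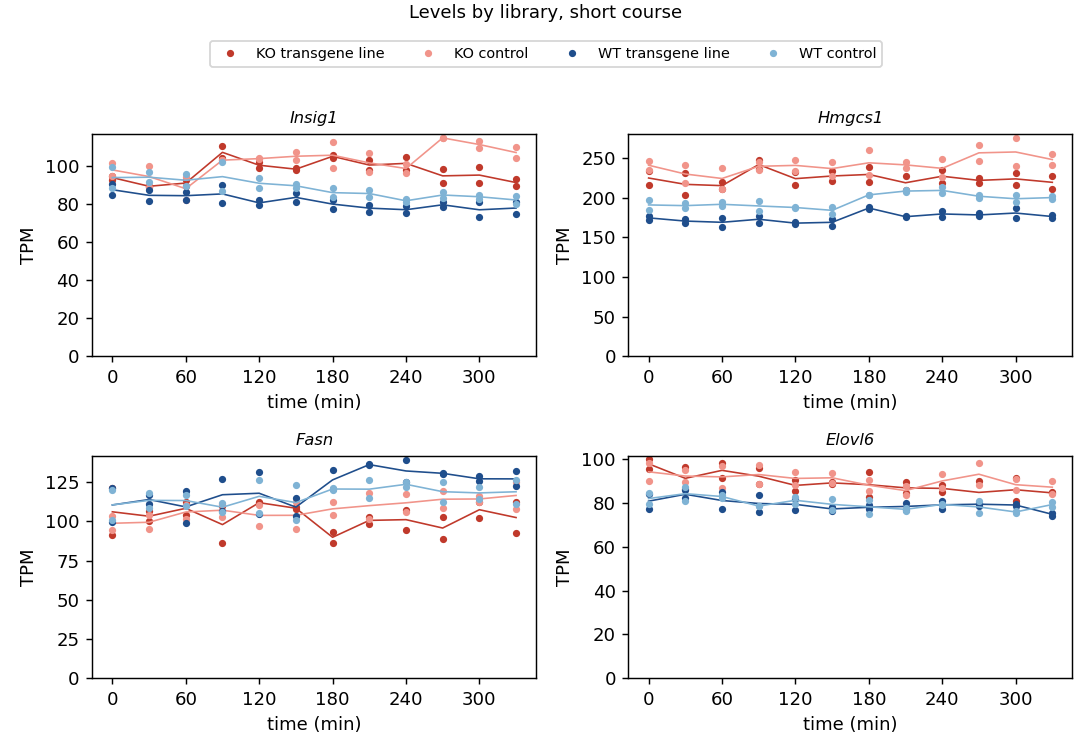
TPM of Insig1, Hmgcs1, Fasn and Elovl6 in every library of the short course (points) with the mean of the 2 replicates (lines) from 0 to 330 min. Insig1 at 330 min lies above its 0 min libraries in the KO control and below them in the WT lines, and Hmgcs1 of the KO control, at 211.5 to 275.4 TPM, lies above most libraries of the WT control, at 179.6 to 213.4 TPM.

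Elovl6 was lower in the short course in all 4 lines, with changes of -0.12 in the KO transgene line (edgeR adjusted p = 2.81e-06), -0.10 in the KO control (edgeR adjusted p = 5.65e-06), -0.13 in the WT transgene line (edgeR adjusted p = 1.09e-08) and -0.09 in the WT control (edgeR adjusted p = 6.14e-05), each ± 0.03, and on the TPM scale only the KO transgene line passed. Sc5d, the lathosterol desaturase, was higher in the KO transgene line (0.21 ± 0.05, edgeR adjusted p = 1.01e-05) and the WT transgene line (0.14 ± 0.04, edgeR adjusted p = 2.27e-06). Idi1 was higher in the KO transgene line (0.15 ± 0.04, edgeR adjusted p = 0.000367). The response to Firre in the short course was called for 1 member in the rescue, Srebf2 (-0.15 ± 0.06, edgeR adjusted p = 0.047, 1.82% of all genes), which did not pass on the TPM scale. Firre itself did not pass in this rescue comparison (3.21 ± 1.07, edgeR adjusted p = 0.238). It was called higher with time in the KO transgene line (3.31 ± 0.32, edgeR adjusted p = 1.61e-14) and in the overexpression (2.40 ± 0.37, edgeR adjusted p = 1.7e-07). Few calls in the short rescue therefore do not show that the members did not respond. In the overexpression edgeR called 0 members (0.7% of all genes), with 5 members at an unadjusted p under 0.05, and DESeq2 called 0 as well. The ESC markers Sox2, Nanog and Klf4 were called lower in the short rescue and in the short overexpression, and Tdgf1 in the latter. The part of these markers in the result was not tested.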

How the data were processed

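Gene-level tables of 156 poly(A) RNA-seq libraries of mouse ESCs were used, made with a TruSeq RNA v2 kit per the labels' protocols. The deposited expected counts came from Salmon 1.5.2 on mm10, per the submitters' processing notes, and 76% of them were whole. How transcripts were summed to genes is not given in the sources used here. The deposited TPM signal, so named per the file headers, served for levels and summed to 924452 to 947484 per library. Mitochondrially encoded genes took 3.42 to 5.44% of counts in the long course and 3.36 to 4.30% in the short course. No library repeated another. Gene positions came from GENCODE M21, in which 31 of the 32 members matched by identifier and version.

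Expected counts were rounded and each course was fitted apart with edgeR 4.0.16 in R 4.3.3 (filterByExpr with a minimum count of 10 and a minimum total of 15, TMM, robust quasi-likelihood F tests). This left 17565 genes in the long and 18009 in the short course. In the long course each line and time had 1 coefficient, and the test had 4 df for changes with time, with the fold change at the time of largest size. The short course had a natural spline of 3 df per line, with the fold change averaged over the 11 later times, and direction is the sign of that value. Contrasts at 0 min used 1 coefficient per line and time. P-values were adjusted by Benjamini-Hochberg over all genes tested, at a threshold of 0.05. The scripts were tested on simulated counts.

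The members, gene lists and tests were chosen with earlier results of these data known. All 32 members could be named, with values for at most 4 called sterol genes and 2 called fatty acid genes each way per comparison, by smallest adjusted p, for Srebf1, Srebf2, Insig1 and Stard4, and for genes shown in every library. Further lists were LXR signalling, other lipogenic genes and fatty acid oxidation, with 4 lists of cell type markers. A list of further sterol genes is not reported here, apart from Npc2 and Tmem97. Alternatives were DESeq2 1.42.0, its size factors, no filter, each replicate left out, a replicate block, fewer libraries, 1 coefficient per time in the short course and, added after seeing the data, library size alone and limma 3.58.1 on log2(TPM + 1), where direction is taken at that scale's own time of largest size.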

Additional observations from a re-analysis of the deposited data

Results flagged for a closer look

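Several results differed between the KO and WT backgrounds by a direct test of the difference. The response to Firre in the long course differed between rescue and overexpression for 5 members. Their log2 differences were -0.225 for Hmgcs1, 0.320 for Idi1, 0.294 for Cyp51, -0.371 for Scd1 and -0.173 for Scd2, each with an edgeR adjusted p under 0.05 as given above. The change with time in the long course differed for 12 members between the KO control and the WT control and for 16 between the KO transgene line and the WT transgene line. In the short course it differed for 1 member, Insig1, between the controls and for 6 between the transgene lines. No cause of these differences was tested, and each background was 1 pair of lines.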

How the results depend on the processing

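Of 240 counts of called members under alternatives, 195 stayed within 1.5 times the reported count and 45 did not. With 1 coefficient per time, 5 instead of 9 members changed with time in the WT transgene line of the short course, 4 instead of 7 in the KO control, 3 instead of 5 in the WT control, and 2 instead of 6 between KO and WT transgene lines. Without a filter the long rescue had 6 instead of 10, the short rescue 4 instead of 1, and the short difference between KO and WT controls 2 instead of 1, which was also 2 with DESeq2, with only the lines compared and with library size alone. The short rescue had 3 with DESeq2 and 0 with only the lines compared, which gave 1 instead of 0 for the short overexpression. On log2(TPM + 1) the short changes with time were 5 instead of 9 in the KO transgene line, 1 instead of 7 in the KO control and 3 instead of 5 in the WT control. KO against WT control at 0 min had 11 instead of 17 in the long and 1 instead of 3 in the short course, and transgene line against control at 0 min 1 instead of 4 (KO) and 5 instead of 12 (WT). The same scale gave 3 instead of 10 for the long rescue, 5 instead of 10 for the overexpression, 3 instead of 5 for their difference, 0 instead of 1 for the short rescue, 5 instead of 12 for the long difference between KO and WT controls and 10 instead of 16 between the transgene lines.

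Leaving out a replicate of every group gave, in the short course, 3 to 8 in the KO transgene line, 4 to 9 in the WT transgene line, 3 in the KO control and 2 to 11 in the WT control. It gave 0 to 4 for KO against WT control at 0 min of the short course, 2 to 3 and 6 to 8 for the KO and WT transgene lines at 0 min, 3 to 7 for the long rescue, 0 to 13 for the overexpression, 2 to 6 for their difference, 0 to 3 for the short rescue and 3 to 5 for the short difference between transgene lines.

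Of 1936 single-gene values under alternatives, 1707 kept direction and call, 202 lost the call, 3 gained it and 24 reversed. Reversed on log2(TPM + 1) were Elovl6 in the long course (-0.009 in both KO lines, -0.019 in the WT transgene line, -0.076 in the WT control), Ggps1 (-0.095 and -0.096 in the WT control and WT transgene line), Hmgcs1 in the WT transgene line (-0.074), Msmo1 in the KO control (-0.131), Srebf2 in the KO transgene line (-0.009), Lss in the rescue (-0.090), Ebp at 0 min in the WT transgene line (-0.018), and over the short course Idi1 (0.015), Srebf1 (-0.024) and Srebf2 (-0.059) between KO and WT controls and Scd1 in the WT transgene line (0.030). With library size alone Ebp between transgene lines (-0.003) and Scd1 in the WT transgene line (0.018) reversed in the short course, and with 1 coefficient per time Hmgcs1 (-0.001) and Idi1 (-0.030) in the KO control. Without a replicate the short values ran from -0.080 to 0.004 for Ebp and from -0.060 to 0.101 for Idi1 in the KO control, from -0.016 to 0.072 for Hmgcs1 in the WT control, from -0.043 to 0.033 for Scd1 in the WT transgene line and from -0.024 to 0.060 for Srebf2 between controls. The cause was not tested for any of these.

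Same-numbered libraries deviated together weakly on average, with a mean r of 0.03 in the long and 0.10 in the short course. Their r ranged from -0.55 to 0.62 and from -0.46 to 0.72. Libraries with other numbers had a mean r of -0.01 and -0.10, and the short value mirrors the first because a group has 2 libraries. The replicate number was not taken as a pairing. With it as a replicate block the counts stayed within 1.5 times, for example 11 against 10 in the long rescue and 13 against 10 in the overexpression. Depth limits the values of Acat3, with 13 to 91 counts per library.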

Other observations

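Genes next to the 2 arms were described as well. Npc2, which hands lysosomal cholesterol on, rose, with log2 changes at 48 h of 0.50, 0.60, 0.37 and 0.60 in the KO transgene line, the KO control, the WT transgene line and the WT control of the long course. Tmem97, a sterol-regulated membrane gene, was higher in the KO control than in the WT control at 0 min of the long course (0.56, edgeR adjusted p = 1.34e-23).

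Of 8 genes of LXR signalling, which include the receptor genes Nr1h2 and Nr1h3, 5 rose and 2 fell with time in the KO transgene line, 3 rose and 3 fell in the KO control, 3 rose and 2 fell in the WT transgene line, and 2 rose and 3 fell in the WT control. Apoe was lower in the KO control than in the WT control at 0 min (-0.59, edgeR adjusted p = 2.71e-10). Of 12 other lipogenic genes, 4 rose and 5 fell, 4 rose and 8 fell, 3 rose and 6 fell, and 4 rose and 6 fell in the same 4 lines. Me1, the malic enzyme that supplies NADPH, rose by 0.82, 0.68, 0.59 and 0.63. Of 10 fatty acid oxidation genes 9 were tested, of which 6 rose and 2 fell, 5 rose and 3 fell, 5 rose and 2 fell, and 4 rose and 2 fell. Over all genes tested 60.8%, 59.6%, 61.9% and 54.8% changed in these lines. Cpt1a, which admits fatty acids to mitochondria, rose by 0.39, 0.45, 0.66 and 0.53. Acadvl, of the first oxidation step, was higher in the KO control than in the WT control at 0 min (0.80, edgeR adjusted p = 1.88e-26).

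The summed sterol arm stood at 1024 ± 5.97 TPM at 96 h in the KO transgene line, against 1199 ± 14.6 TPM at 0 min (SD, n = 3), at 1055 ± 15.7 TPM against 1265 ± 10.8 TPM in the KO control, at 1043 ± 10.5 TPM against 1192 ± 17.8 TPM in the WT transgene line, and at 1030 ± 14.9 TPM against 1188 ± 6.39 TPM in the WT control. The summed fatty acid arm stood at 606.9 ± 7.82 TPM against 718.3 ± 22.9 TPM, 593.3 ± 18.5 TPM against 755.5 ± 19.9 TPM, 582.2 ± 10.9 TPM against 619.4 ± 12.4 TPM and 504.3 ± 14.6 TPM against 617.9 ± 13.9 TPM in the same lines and times. Every sum at 96 h lay below those of 0 min in its line. On the TPM scale the median gene moved by -0.046, -0.042, -0.035 and -0.075 log2 at 96 h in these lines. At 12 h the fatty acid sum of the KO control was 821.3 ± 12.4 TPM, above its 0 min without overlap. In the KO transgene line, the WT transgene line and the WT control it was 777.7 ± 51.4, 605.4 ± 25.8 and 634.6 ± 13.1 TPM. These libraries overlapped those of 0 min.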
